A study of Mus musculus with 20 samples.

Results

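The comparison described here set 4 livers of mice given the antisense oligonucleotide SPC4061 against 4 livers of mice given SPC3847, both at 10 mg/kg. These 8 arrays were chosen by their treatment label out of 20 in the series. All mice were C57BL/6 females, and their age is not given in the sources used here. Doses went into a vein on 3 consecutive days. The treatment protocol places the collection of the liver on day 3, counted from a first dose on day 0, while the source name gives 4 days after the first dose. The other 12 arrays were 4 with saline, 4 with SPC4955 at 10 mg/kg and 4 with SPC3833 at 5 mg/kg, and they are used below only to show where the 8 lie. Each array measured total RNA of 1 liver, so fewer cells of a type and less RNA per cell cannot be told apart.

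An antisense oligonucleotide is a short synthetic strand that binds an RNA of matching sequence by base pairing. Many such strands recruit RNase H, an enzyme that cuts the RNA of the paired stretch, so the level of a bound RNA can fall. The liver takes up a large part of an oligonucleotide given into the blood, and RNAs other than the intended one can be bound where their sequence is close enough. The labels give both compounds by code name alone. Their sequence, chemistry and intended target are therefore not stated here, and no difference in structure can be named. Genes carry Ensembl identifiers, and 0 of the 22361 could be matched to a symbol with the tables used here. For that reason no gene is given a role, no promoter is shown, and the tissue label was not checked against liver markers.

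The values are log2 intensities, 1 per gene and array, so that a difference of 1 is a 2-fold difference. Array medians of the 8 arrays lay between 6.37 and 6.53. Correlations across genes were 0.995 to 0.997 between the SPC4061 arrays, 0.986 to 0.996 between the SPC3847 arrays and 0.983 to 0.994 between the groups. SPC3847 replicate 4 stood apart from its group: the SD of its deviation from the group mean, over genes, was 0.227, against 0.120 to 0.169 in the other 3 arrays and 0.105 to 0.131 in the SPC4061 arrays. It also had the narrowest distribution of the 20 arrays, with a quartile range of 2.70. The quartile range averaged 3.14 ± 0.08 with SPC4061 and 2.96 ± 0.21 with SPC3847 (mean ± SD, n = 4 each), and this difference did not pass an exact two-sided permutation test (p = 0.171, adjusted over this test and that of the array medians 0.343, smallest possible p 0.0286).

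Large differences between SPC4061 and SPC3847 livers were found in a small number of genes. ENSMUSG00000038092 was 18.1-fold and ENSMUSG00000066071 13.05-fold higher with SPC4061. ENSMUSG00000038656 was 5.68-fold and ENSMUSG00000032434 4.51-fold lower with SPC4061. These 4 genes had the largest differences in each direction among the genes that passed the test and whose groups did not overlap. The test was limma on the 8 arrays with Benjamini-Hochberg adjustment over all 22361 genes, and a gene with an adjusted p below 0.05 is called below.

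ENSMUSG00000038092 read 9.47, 9.73, 9.44 and 10.22 in the 4 SPC4061 livers. In the 4 SPC3847 livers it read 5.49, 5.31, 5.83 and 5.52. Every SPC4061 liver was thus high and every SPC3847 liver low, with 3.60 log2 units between the nearest arrays of the groups. The difference was 4.18 ± 0.17 on the log2 scale (SE), with a 95% interval of 13.9-fold to 23.5-fold (limma adjusted p = 2.88e-06). The saline livers read between 4.67 and 5.85 and the SPC4955 livers between 4.53 and 5.51, ranges that overlapped those of SPC3847. The SPC3833 livers, at the lower dose, lay between 5.38 and 7.09 and remained below every SPC4061 liver. In a model of all 20 arrays the gene was 4.63 ± 0.31 above saline with SPC4061 (log2, SE; limma adjusted p = 1.69e-08) and 0.45 ± 0.31 above saline with SPC3847, which did not pass (adjusted p = 0.589, 95% interval -0.20 to 1.10). Ranked within the group means, 32.5% of genes had a lower level than this gene with SPC3847 and 91.6% with SPC4061.

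ENSMUSG00000066071 read 7.25, 7.35, 7.77 and 8.55 in the SPC4061 livers. It read 4.01, 4.30, 3.87 and 3.91 in the SPC3847 livers. The groups did not overlap, and replicate 4 was the highest of the SPC4061 livers for this gene as it was for ENSMUSG00000038092. The difference was 3.71 ± 0.24 (log2, SE), with a 95% interval of 8.99-fold to 18.9-fold (limma adjusted p = 4.49e-05). With SPC3847 only 10.9% of genes had a lower level, so the low end of this ratio may hold background, which was not analysed here. All 12 livers of the other 3 groups lay between 4.01 and 4.64, far under the SPC4061 livers. Against saline the 20-array model gave 3.55 ± 0.21 with SPC4061 (log2, SE; limma adjusted p = 2.36e-09) and -0.16 ± 0.21 with SPC3847 (adjusted p = 0.835, 95% interval -0.60 to 0.28).

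ENSMUSG00000038656 read 6.36, 6.25, 5.39 and 6.57 in the SPC4061 livers. It read 8.42, 8.27, 9.20 and 8.70 in the SPC3847 livers. The groups were separated by 1.70 log2 units at their nearest arrays. The difference was -2.51 ± 0.26 (log2, SE), a 95% interval of 3.83-fold to 8.43-fold lower (limma adjusted p = 0.000859). This gene varied widely between livers outside the pair, from 8.42 to 10.55 with saline and from 7.20 to 10.46 with SPC4955, where the SD was 1.40. Against saline it differed by -3.41 ± 0.52 with SPC4061 (log2, SE; limma adjusted p = 0.000255). With SPC3847 the difference from saline was -0.90 ± 0.52 and did not pass (adjusted p = 0.48), with a 95% interval from -1.98 to 0.19 that includes a fall of more than 2-fold.

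ENSMUSG00000032434 read 7.45, 7.91, 7.98 and 7.58 in the SPC4061 livers. It read 9.97, 9.84, 9.83 and 9.97 in the SPC3847 livers. The groups lay 1.85 log2 units apart at their nearest arrays, and the SPC4061 livers varied more (SD 0.257) than the SPC3847 livers (SD 0.077). The difference was -2.17 ± 0.12 (log2, SE), a 95% interval of 3.77-fold to 5.41-fold lower (limma adjusted p = 1.04e-05). The 12 livers of the other groups ranged from 9.64 to 10.04, so that low values were seen in the SPC4061 livers alone. Against saline it differed by -2.09 ± 0.09 with SPC4061 (log2, SE; limma adjusted p = 1.79e-11) and by 0.08 ± 0.09 with SPC3847 (adjusted p = 0.787, 95% interval -0.11 to 0.27). These SEs pool the spread of all 5 groups. With only the SPC4061 and saline arrays the adjusted p for SPC4061 was 4.32e-05 (limma). As background, 11.5% of all genes passed against saline with SPC4061 and 3.33% with SPC3847 in the 20-array model. The plot of the 4 genes shows each liver of the 5 groups.

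**Figure D1:**
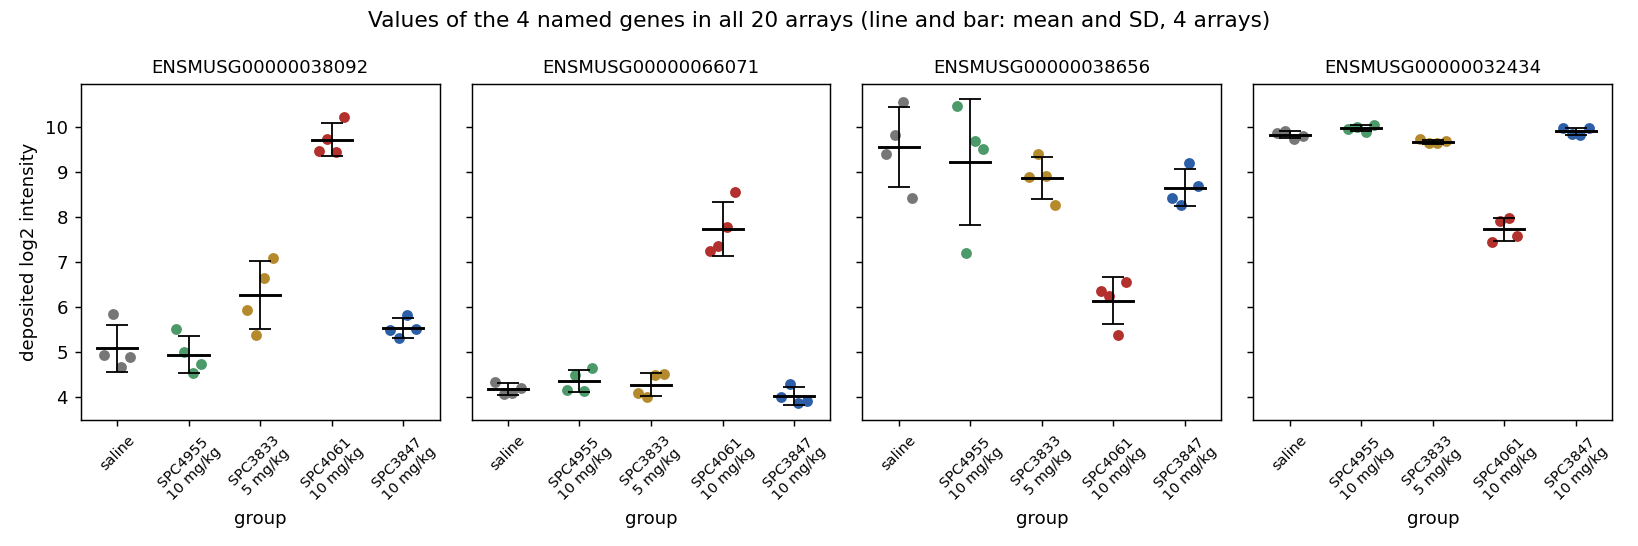
Deposited log2 intensity (vertical axis) of ENSMUSG00000038092, ENSMUSG00000066071, ENSMUSG00000038656 and ENSMUSG00000032434 in each of the 20 livers by group, with points for livers in order of replicate number, a line for the mean and bars for the SD (n = 4). The SPC4061 livers lie apart from all 16 others in each panel, above them for the first pair of genes and below them for the second.

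Over all genes, 717 were called (3.21% of 22361), of which 500 were higher with SPC4061 (2.24%) and 217 lower (0.970%), so that 69.7% of the called genes were higher. Most of these differences were small. Of the higher genes, 344 differed by less than 1.5-fold, 123 by 1.5-fold to 2-fold, 30 by 2-fold to 4-fold and 3 by 4-fold or more. Of the lower genes the numbers were 130, 66, 18 and 3. The median difference was 1.40-fold among higher and 1.43-fold among lower genes. The 4 SPC4061 arrays lay above all SPC3847 arrays in 1813 genes (8.11% of all genes) and below them in 1056 (4.72%). Among called genes the groups were separate in 495 of the 500 higher and in all 217 lower genes.

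These totals moved with the arrays used and with the scaling. A fit with an array left out has fewer samples and so less power. Without SPC4061 replicates 1, 2, 3 and 4 the number higher was 257, 208, 272 and 181. Without SPC3847 replicates 1, 2 and 3 it was 621, 181 and 392. The number lower was 125, 115, 154 and 99 without SPC4061 replicates 1, 2, 3 and 4. It was 258, 113 and 177 without SPC3847 replicates 1, 2 and 3. Leaving out SPC3847 replicate 4, the array that stood apart, gave 497 higher and 274 lower. The share of called genes that were higher was 56.0% after quantile normalization and 54.1% with the quartile range of each array as a covariate. Higher calls outnumbered lower calls under all 17 alternatives tried, as the plot of counts by setting shows.

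**Figure D2:**
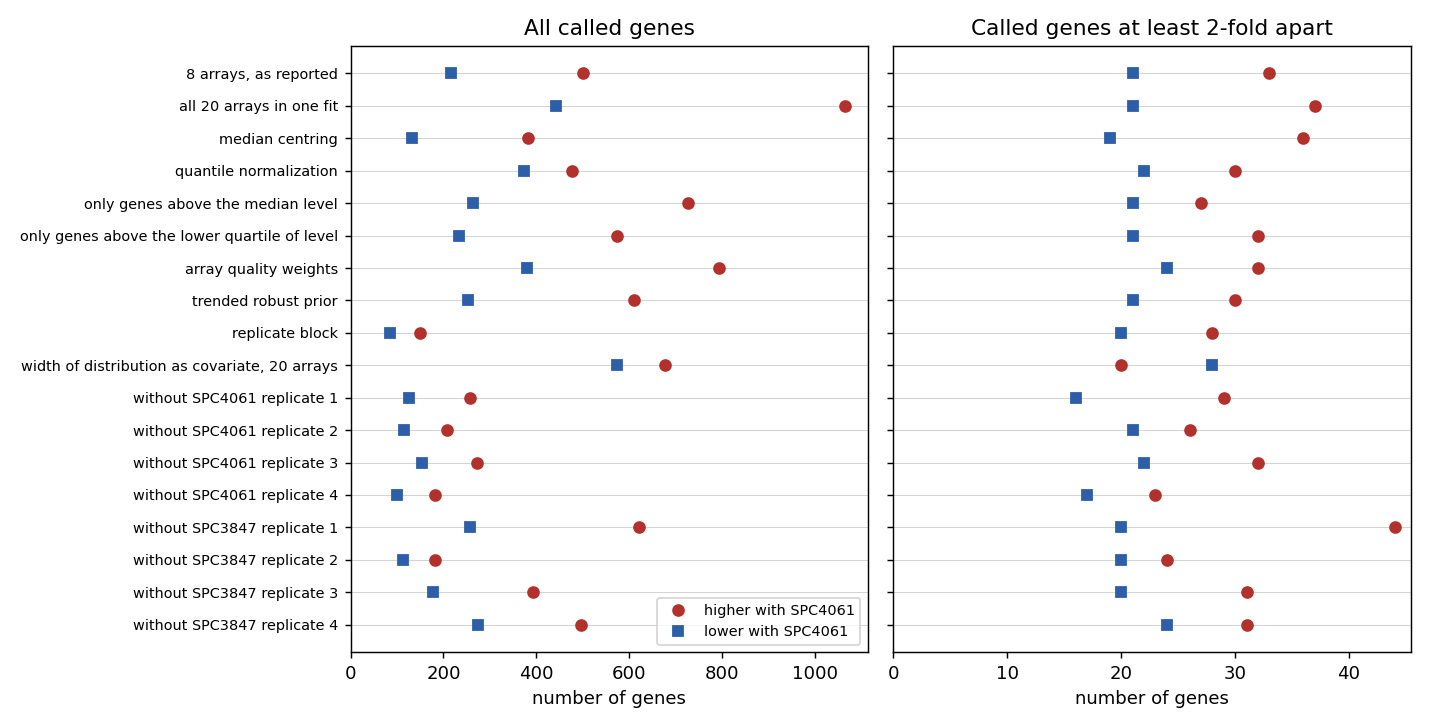
Number of called genes (horizontal axes, limma adjusted p below 0.05) higher (circles) and lower (squares) with SPC4061 than with SPC3847, for all called genes on the left and those at least 2-fold apart on the right, under the reported fit (top line) and 17 alternatives. The number higher runs from 150 to 1065 on the left and from 20 to 44 on the right.

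At least 2-fold apart and called were 54 genes (0.241% of all tested), 33 higher (0.148%) and 21 lower (0.0939%) with SPC4061. The groups did not overlap in 32 of the 33 and in all 21, against 8.11% of all genes above and 4.72% below. A called difference of this size leaves little room for overlap, so these counts add no support. After the 2 named genes, the third largest difference on the higher side was 7.24-fold and the tenth 2.63-fold. On the lower side the third largest difference was 4.29-fold and the tenth 2.34-fold. The medians of the lists were 2.32-fold for the higher and 2.34-fold for the lower genes. Of the 33 higher genes 21, and of the 21 lower genes 19, were called in the same direction under each alternative in which they were tested. In the fit of all 20 arrays there were 37 higher and 21 lower. With the quartile range added to that fit as a covariate the order turned, to 20 higher and 28 lower.

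The genes at least 2-fold lower with SPC4061 all had a mean level in the upper part of the range. A gene near the floor has little room to be 2-fold lower, so this placement follows in part from how the list was made. All genes were divided by their mean over the 8 arrays into 4 classes of equal size, from class 1 (dimmest) to class 4 (brightest). Of the 21 genes, 11 lay in class 4, 10 in class 3 and 0 in classes 1 and 2. Their median level was 8.80 with SPC3847, 8.81 with saline and 7.43 with SPC4061. The 33 higher genes were spread more widely, with 9 in class 4, 17 in class 3, 5 in class 2 and 2 in class 1. Their median level was 6.81 with SPC3847, 7.002 with saline and 8.16 with SPC4061. Calls of any size were also few among dim genes, with 8 higher and 10 lower in class 1 against 234 and 83 in class 4. The median difference of all genes changed along the same axis, from -0.07 and -0.12 in classes 1 and 2 to 0.03 and 0.07 in classes 3 and 4 (log2). The quartile range was wider with SPC4061 on average, the same direction as this trend. That difference did not pass its test, and with 4 arrays per group the test had little power. The ranges of the groups overlapped, with 3.02 in SPC4061 replicate 1 and 3.16 and 3.10 in SPC3847 replicates 1 and 3. The part of distribution width in the counts was not tested beyond the covariate and the quantile normalization given above.

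**Figure D3:**
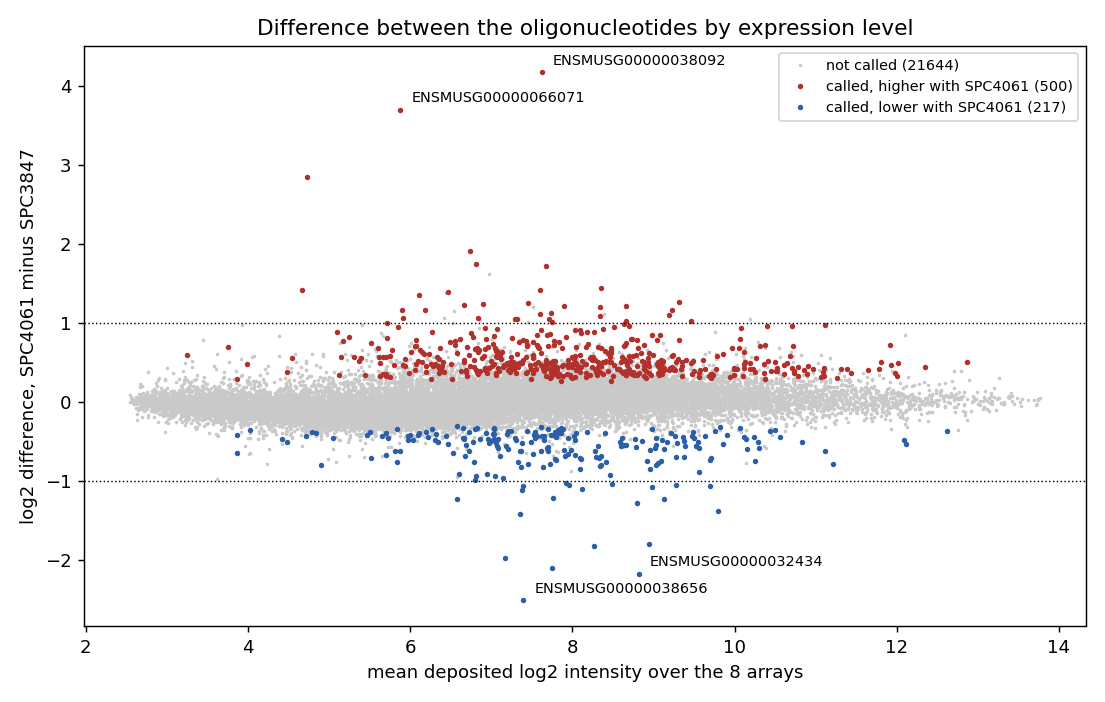
Log2 difference, SPC4061 minus SPC3847 (vertical axis), against the mean log2 intensity over the 8 arrays (horizontal axis) for 22361 genes, with the 500 genes called higher in red, the 217 called lower in blue and dotted lines at 2-fold. The genes beyond the lower line all lie in classes 3 and 4 of mean level.

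Saline lay on the side of SPC3847 for every gene at least 2-fold lower with SPC4061. In all 21 of these genes the saline mean was nearer to the SPC3847 mean than to the SPC4061 mean, against 62.7% of all genes. The SPC4061 mean was below saline in 21 of 21, with a median difference of -1.30 on the log2 scale, and at least 2-fold below in 19. Of all 22361 genes, 11935 were below saline with SPC4061 and 77 at least 2-fold below. In the 21 genes the SPC3847 mean differed from saline by -0.90 to 0.32, with a median of -0.01. It was above saline in 10 and below it in 11, against 13063 above and 9298 below of all genes. Without SPC3847 replicate 4, and without saline replicate 1, the saline array farthest from the others, saline remained nearer to SPC3847 in 21 of 21. These genes were chosen by a contrast that uses the SPC4061 and SPC3847 arrays, and both differences from saline share the saline arrays, so the counts are a description.

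Among the 33 genes at least 2-fold higher with SPC4061, saline was nearer to SPC3847 in 23 (69.7%) and nearer to SPC4061 in 10, a share near the 62.7% of all genes. The SPC4061 mean was at least 2-fold above saline in 17 of the 33, above it by less in 11 and below it in 5, with a median difference of 1.09 (log2). Of all 22361 genes, 36 were at least 2-fold above saline with SPC4061, 10426 above it by any amount and 11935 below it. The SPC3847 mean was below saline in 25 of the 33, at least 2-fold below in 5, and at least 2-fold above in 0. Of all 22361 genes, 9298 were below saline with SPC3847, 61 at least 2-fold below and 6 at least 2-fold above. The 33 genes were chosen for a higher mean with SPC4061 than with SPC3847, so these counts are a description. Without saline replicate 1 the 23 became 26 (78.8%, against 68.3% of all genes), and without SPC3847 replicate 4 they became 25 (75.8%, against 60.8%).

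In the 5 genes whose SPC3847 mean was at least 2-fold below saline, a set chosen after the values were seen, the mean distance from saline was -1.05, -1.45, -1.35 and -2.24 in SPC3847 replicates 1 to 4 (log2). In the SPC4061 livers it was -0.28, -0.31, -0.62 and -0.46. All 8 livers were below the saline mean on average in these genes. The choice of the set fixed that SPC3847 lay below saline and below SPC4061, so that order is no result. SPC3833 livers lay at -1.16, -0.67, -0.60 and -0.67, and their range touched those of both groups of the pair. SPC4955 livers, at the dose of the pair, lay at -0.03, -0.39, -0.37 and -0.28, a range that overlapped that of SPC4061 and lay above that of SPC3847. Saline livers themselves ranged from -0.43 to 0.54.

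SPC3847 replicate 4 was the lowest of its group in 19 of the 33 higher genes, in 13 of the 21 lower genes and in 29.9% of all genes. Within SPC4061, replicate 1 was the lowest in 13 of the 21 lower genes, against 26.6% of all genes, and replicate 4 was the highest in 13 of the 33 higher genes, against 18.8% of all genes. The lower genes were thus furthest below saline in SPC4061 replicate 1, where the mean difference was -1.64, and least so in replicate 3, where it was -1.33 (log2). Both lists were chosen from the values of these same arrays, so these counts are a description.

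The other oligonucleotides were set beside the pair in these 54 genes. With SPC4955, which had the same dose, 2 of the 33 higher genes were at least 2-fold above saline and 1 of the 21 lower genes was at least 2-fold below, against 0.107% above and 0.353% below of all genes. Its median distance from saline was -0.03 in the higher and -0.14 in the lower genes (log2). The SPC4955 mean was nearer to SPC3847 in 20 of 33 and 18 of 21, against 50.3% of all genes. With SPC3833 at 5 mg/kg, 1 higher gene was at least 2-fold above saline and 4 were at least 2-fold below, and 1 lower gene was at least 2-fold below, against 0.0313% above and 0.510% below of all genes. Its mean was nearer to SPC3847 in 27 of 33 and 19 of 21, against 67.7% of all genes, with a dose that differed from that of the pair. Without SPC4955 replicate 1, which stood apart from its group, the 20 became 19.

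**Figure D4:**
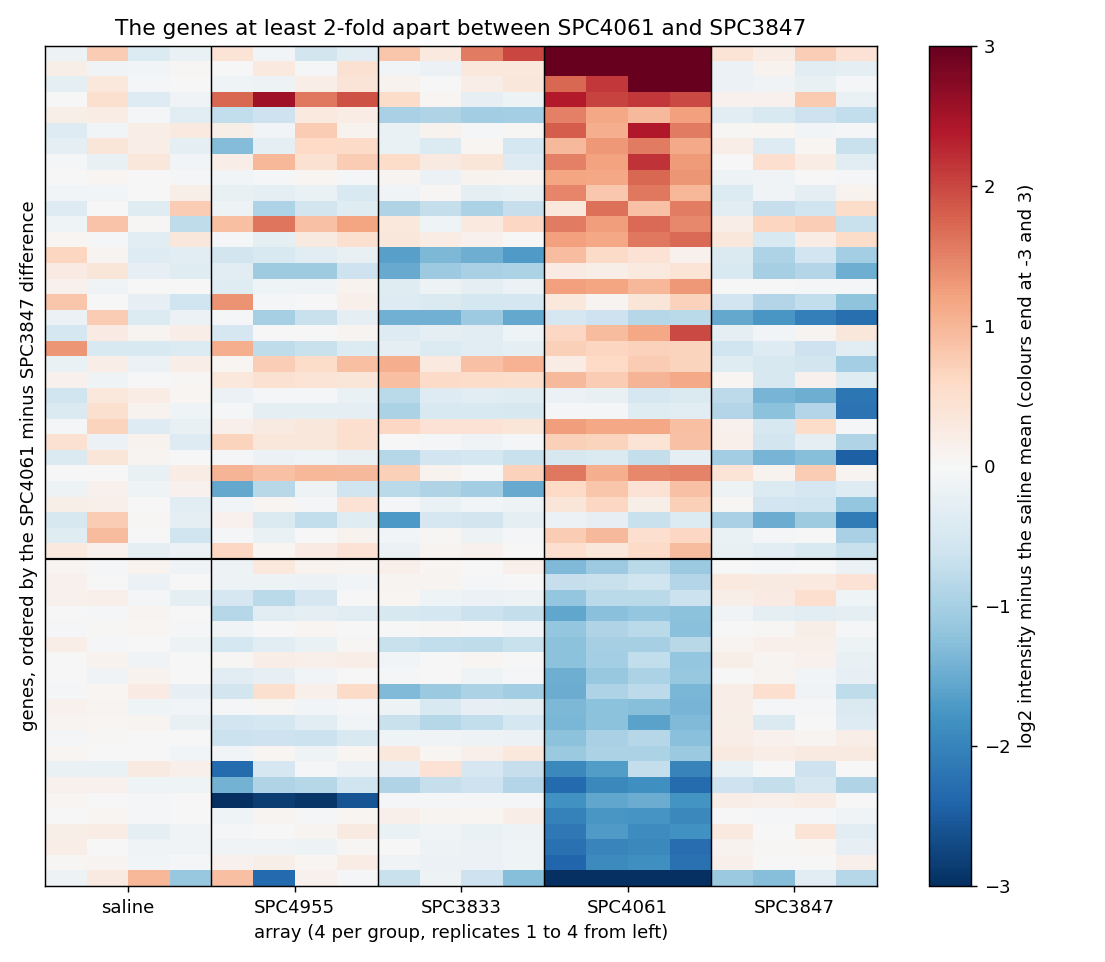
Log2 intensity minus the saline mean (colour, ending at -3 and 3) of the 54 genes at least 2-fold apart between SPC4061 and SPC3847, with genes in rows ordered by that difference and the 20 arrays in columns, 4 per group in order of replicate number. Above the horizontal line are the 33 higher genes, where the SPC4061 mean is above saline in 28 and the SPC3847 mean below it in 25, and below it the 21 lower genes, where the SPC4061 mean is below saline in all.

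A further 10 genes had means at least 2-fold apart without being called, with adjusted p between 0.0553 and 0.351 (limma). All 10 were higher with SPC4061. Their spread was larger in the SPC3847 livers, with a median SD of 0.964 against 0.300 with SPC4061. Over all genes these medians were 0.152 and 0.102. A wide spread is part of how such a set arises, since the means were far apart without a call. SPC3847 replicate 4 was the lowest of its group in 9 of the 10, against 29.9% of all genes, with a mean difference from saline of -2.35 (log2). SPC3847 replicate 1 was the highest in 9, against 26.2% of all genes, with a mean difference of -0.43. No statement on a difference between the oligonucleotides is made for these genes.

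For most genes the data bound the difference in measured intensity closely. The 95% interval of the difference lay wholly within 2-fold in either direction for 22071 genes (98.7%) and within 1.5-fold for 20208 (90.4%). Its half-width had a median of 0.21 on the log2 scale. These intervals are per gene, without adjustment for the number of genes. They cover all genes, dim ones too. Signal over background was not analysed, so for a dim gene a narrow interval may not bound the difference in RNA. For the remaining 290 genes the interval reached past 2-fold, and 158 of them were not called, so a 2-fold difference was neither shown nor bounded there. Livers varied more with SPC3847 than with SPC4061, with a larger SD in 71.7% of genes and a median SD of 0.152 against 0.102 (log2). Without SPC3847 replicate 4 the median SD with SPC3847 was 0.112.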

How the data were processed

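Liver RNA of 20 mice was biotin-labelled with Affymetrix's whole-transcript sense-target assay and measured on 1-colour arrays, per the labels' protocols. The authors deposited log2 values, 1 per gene and array, and used the affy package, per the submitters' processing notes. The background correction, normalization, array design and probe assignment were all not given in the sources used here. Wider distributions place bright genes higher and dim genes lower, and they differed between arrays. Precision is limited by the number of arrays, and signal over background was not analysed here.

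The 4 SPC4061 arrays were compared with the 4 SPC3847 arrays (1 pair of compounds) with limma 3.58.1 in R 4.3.3 (lmFit and eBayes) on the deposited values, without a filter, with 6 residual degrees of freedom. P-values were Benjamini-Hochberg adjusted over 22361 genes. Differences from saline came from a model of all 20 arrays with a mean per group. The 8 arrays alone were used for the main comparison because the spread of the 5 groups differed. The fit was tested on simulated data. The simulation gave both groups the same spread for a gene, unlike the data, so it does not cover the unequal spread.

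Members, lists and the rule for named genes were chosen with earlier results of these data known. The rule named 12 genes in each direction, or 2 where identifiers could not be paired with symbols, which was the case here. Gene lists, cell type markers, spans and gene types were for that reason not analysed. Replicates are mice labelled as biological replicates. No batch information was found in the labels or the file.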

Additional observations from a re-analysis of the deposited data

Results flagged for a closer look

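The quartile range of SPC4061 replicate 1 was 3.02, below the 3.18 to 3.20 of the other 3 SPC4061 arrays, a gap that took up 0.896 of the whole range of the group. It was the only one of 26 groups of 4 values examined (4 named genes in 5 groups of livers, and 3 measures of the arrays in 2 groups) whose most extreme value lay this far from the rest. About 1 in 20 groups is expected to do so by chance. Without this array 257 genes were called higher and 125 lower with SPC4061, and 29 and 16 were at least 2-fold higher and lower.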

How the results depend on the processing

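The 4 named genes kept their direction and were called under every alternative in which they were tested, with adjusted p (limma) of 5.55e-08 to 0.000298 for ENSMUSG00000038092, 8.93e-10 to 0.00131 for ENSMUSG00000066071, 0.000412 to 0.0146 for ENSMUSG00000038656 and 1.15e-11 to 0.000924 for ENSMUSG00000032434. ENSMUSG00000066071 fell out of the filter on the median level, where it was not tested. Groups that do not overlap fix a direction when arrays are left out, so that part is no sign of stability. Their differences from saline kept direction and call with only the 8 arrays of the contrast, median centring, quantile normalization and a trended robust prior, all 4 added after the data were seen. With only the SPC4061 and saline arrays, the adjusted p (limma) for SPC4061 was larger than in the 20-array model. It was 4.32e-05, 0.000128, 0.00165 and 4.32e-05 for the 4 genes in the order above. Saline remained nearer to SPC3847 in 21 of the 21 lower genes, and in 22 to 26 of the 33 higher genes, under median centring, quantile normalization and with each saline, SPC4061 or SPC3847 array left out, also added later. The counts of called genes moved from 500 higher and 217 lower. On the 8 arrays they were 793 and 379 with array quality weights, 382 and 132 after median centring, and 476 and 374 with quantile-normalized values. With all 20 arrays in 1 fit they were 1065 and 442. Adding the quartile range to that fit as a covariate gave 677 and 575. Of the 717 calls, 667 were kept in the fit of 20 arrays. The fit of 20 arrays gave 37 genes at least 2-fold higher and 21 lower, and 20 and 28 with the quartile range as a covariate. Leaving out 1 array gave 181 to 621 higher and 99 to 274 lower, and 23 to 44 and 16 to 24 at least 2-fold apart, in fits with fewer samples. With the replicate number as a block the counts were 150 and 84, in a fit with fewer residual degrees of freedom. Replicates shared only a number: deviations of same-numbered arrays correlated between -0.39 and 0.03, and 0 of 4 SPC4061 arrays correlated best with its own number. At an unadjusted p below 0.05 there were 4235 genes, against 717 after adjustment.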
